A study of Mus musculus with 4 samples.

Results

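Intronic CpG sites away from promoters were taken as CpG sites that lay inside a protein-coding gene, in no exon of any gene, and more than 2 kb from the 5' end of every gene in the GENCODE vM1 annotation of mm9. On the autosomes, 53845 such sites had at least 10 reads in all 4 libraries, out of 400195 sites of every class with that coverage. These sites were spread over 6838 protein-coding genes. No methylation value was used to choose them. Methylation of a site was the number of methylated reads divided by all reads at the CpG, with both strands of the CpG counted together, and is given in percent.

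The sites were measured by reduced representation bisulfite sequencing (RRBS-seq), in which MspI cuts genomic DNA at CCGG, so that CpG-rich fragments are enriched, and bisulfite converts unmethylated cytosines before sequencing. The study used mouse embryonic stem (ES) cells with an intact (Chr4-cl WT) or a CRISPR/Cas9-deleted (Chr4-cl KO) cluster of KRAB zinc finger protein (KRAB-ZFP) genes on chromosome 4. Each genotype was grown in serum medium with 20% FCS and LIF, or for 1 week in 2i + Vitamin C (called 2i from here on), and each of these 4 conditions was a single library. Both genotypes came from ES cells of mice that carry the cre/ERT transgene at the ROSA26 locus, and KO and WT clones had been picked one by one after the deletion. A difference between genotypes and a difference between clones therefore cannot be told apart, and no difference below has a replicate check.

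Most CpGs of mammalian gene bodies are methylated, while CpG islands, including those that act as alternative promoters within introns, are usually free of methylation. ES cells in serum carry high levels of DNA methylation, and the MEK and GSK3 inhibitors of 2i together with Vitamin C, a cofactor of the TET dioxygenases, lower methylation over most of the genome. Imprinting control regions are methylated on the allele of one parent only, and several of them lie within introns. KRAB-ZFPs bring the corepressor KAP1 and H3K9 methylation to their DNA targets, many of which are transposable elements that also reside in introns.

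Summed over all CpG sites, libraries held between 42684672 reads (KO, 2i) and 90649194 reads (WT, 2i). The median coverage of an intronic site was 45 (WT) and 50 (KO) reads for the serum libraries, and 76 and 34 reads for those in 2i. In a 2 Mb interval of chromosome 4 at the cluster, the WT libraries held 73065 reads in serum and 92587 reads in 2i, but the KO libraries held 644 and 421 reads, while both flanking intervals were covered in all 4 libraries. The genotype labels of the 4 libraries thus matched the reads, and none of the intronic sites described here lay in that interval.

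One pattern did not follow genotype or medium. At 36 intronic sites methylation was at most 10% in WT cells in serum and KO cells in 2i but at least 20% in the other 2 libraries, whereas the opposite pattern occurred at 3 sites. The median levels of the 36 sites were 1.45% in WT and 32.6% in KO ES cells in serum and 26.1% in WT and 0.638% in KO cells in 2i. Over all classes of sites, 525 sites followed the first pattern and 22 the opposite one. Of the 525 sites, 256 lay exactly 6 bp and 87 exactly 18 bp from the nearest CCGG. The files of WT cells in serum and KO cells in 2i were also the ones that held a second table after the first, and whether this bears on the pattern was not tested. Since KO cells exceeded WT cells in serum and fell short of them in 2i at most intronic sites, this pairing of libraries runs in the same directions as the genotype differences below. An effect of medium on the genotype difference and a difference between these pairs of libraries cannot be told apart, and values without the sites at these distances are given beside the results they touch.

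Sequences of 8 intronic stretches (at least 5 neighbouring sites of the same host gene with gaps of at most 200 bp) are shown because the largest differences between libraries rest on them. All are given for the plus strand of mm9, 5' to 3', with 10 bases on either side, and capitals mark the CpGs that were measured. Those of Brd3 and Cmklr1 were ended at 300 bases, after 6 and 4 of their sites. Grb10 had the largest loss in KO ES cells in serum, and Brd3 and Trappc9 the largest losses in KO cells in 2i. Dennd3 and 1300010F03Rik had the largest gains in KO ES cells in serum, and Cntn4 the largest gain in KO cells in 2i. Eml6 had the highest methylation in 2i and Cmklr1 the largest drop from serum to 2i, each taken as the smaller value of the genotypes.
Grb10, chr11:11926760-11926869: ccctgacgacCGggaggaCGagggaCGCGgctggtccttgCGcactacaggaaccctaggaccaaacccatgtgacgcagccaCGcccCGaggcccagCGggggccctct
Brd3, chr2:27351130-27351429: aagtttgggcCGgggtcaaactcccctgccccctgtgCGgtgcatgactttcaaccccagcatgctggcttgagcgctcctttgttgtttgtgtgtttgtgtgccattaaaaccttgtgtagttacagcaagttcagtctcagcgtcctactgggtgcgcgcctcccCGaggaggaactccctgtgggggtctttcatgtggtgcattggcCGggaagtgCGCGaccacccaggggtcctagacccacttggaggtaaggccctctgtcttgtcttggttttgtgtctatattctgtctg
Trappc9, chr15:72640300-72640527: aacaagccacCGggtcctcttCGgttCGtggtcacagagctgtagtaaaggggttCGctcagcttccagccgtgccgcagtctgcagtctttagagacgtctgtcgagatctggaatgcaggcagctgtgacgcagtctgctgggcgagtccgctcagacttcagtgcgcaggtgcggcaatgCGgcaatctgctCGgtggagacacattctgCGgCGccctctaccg
1300010F03Rik, chr14:79520515-79520580: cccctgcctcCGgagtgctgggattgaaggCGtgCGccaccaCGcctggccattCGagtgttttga
Dennd3, chr15:73363368-73363654: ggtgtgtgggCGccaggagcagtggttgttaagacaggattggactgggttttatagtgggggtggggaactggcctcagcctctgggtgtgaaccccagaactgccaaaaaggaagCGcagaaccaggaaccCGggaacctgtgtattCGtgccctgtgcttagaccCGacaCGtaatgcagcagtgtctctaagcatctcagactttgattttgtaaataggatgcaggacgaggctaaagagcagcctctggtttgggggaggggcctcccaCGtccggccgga
Cntn4, chr6:105648444-105648633: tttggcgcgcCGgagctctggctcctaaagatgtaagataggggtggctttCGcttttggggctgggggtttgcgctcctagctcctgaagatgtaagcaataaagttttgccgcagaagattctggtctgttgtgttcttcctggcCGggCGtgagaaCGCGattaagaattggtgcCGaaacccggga
Eml6, chr11:29875675-29875842: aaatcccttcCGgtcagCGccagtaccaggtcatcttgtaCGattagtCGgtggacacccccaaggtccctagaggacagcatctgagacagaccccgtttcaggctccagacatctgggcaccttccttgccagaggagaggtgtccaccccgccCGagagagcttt
Cmklr1, chr5:114073792-114074091: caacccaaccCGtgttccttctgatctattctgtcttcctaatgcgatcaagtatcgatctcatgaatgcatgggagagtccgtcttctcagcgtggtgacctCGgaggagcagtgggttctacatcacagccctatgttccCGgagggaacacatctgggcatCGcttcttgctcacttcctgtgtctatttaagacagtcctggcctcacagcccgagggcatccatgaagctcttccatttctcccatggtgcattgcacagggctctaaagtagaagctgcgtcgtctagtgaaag

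The Cntn4, Trappc9 and Grb10 sequences are the densest in CpG. They have means of 13, 12.75 and 11.8 CpGs in 100 bp to either side of each measured site, while those of Dennd3 and Eml6 hold 6.29 and 5.80. Some of these sequences are not unique in the genome. A median of 309 exact placements was found in mm9 for 24-base pieces around the Cntn4 sites, against 1 for Grb10, Trappc9, Dennd3, 1300010F03Rik and Cmklr1, 1.5 for Brd3 and 15 for Eml6. Reads of a repeated sequence may stem from more than 1 copy. Exact matching does not count copies that differ in sequence, so 1 placement does not show that a stretch lies outside repeats.

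In serum, intronic sites were mostly methylated in both genotypes, and in 2i they were mostly at low or intermediate levels. The mean over sites was 57.3% (SD over sites 37.4) in WT and 62.7% (SD over sites 37.1) in KO ES cells in serum, and 25.9% (SD over sites 24.1) and 22.9% (SD over sites 22.9) in 2i. The medians were 74.5% and 82.5% in serum and 19.5% and 16.1% in 2i. In serum the distribution had a peak at each end, with 44.7% of sites in WT and 53.5% in KO cells at 80% methylation or above, and 23.6% and 20.8% at 10% or below. In 2i only 2.26% of sites in WT and 1.78% in KO cells remained at 80% or above.

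**Figure D1:**
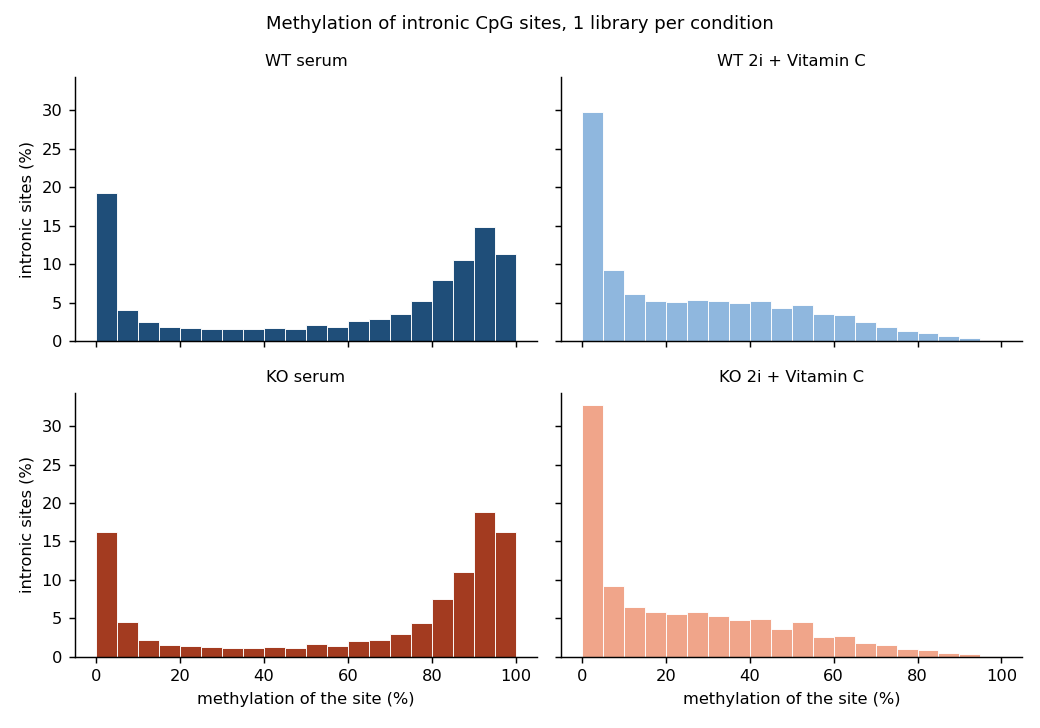
Histograms of methylation (x axis, percent, bins of 5 points) over the 53845 intronic sites (y axis, percent of sites), with a panel for each of the 4 libraries. The serum panels have a narrow peak near 0 and a broader one near the top of the scale (medians 74.5% and 82.5%), while the 2i panels are shifted to low levels (medians 19.5% and 16.1%).

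Compared with the other classes of sites, intronic sites lay between exonic and intergenic ones in serum. The mean in WT cells in serum was 43.9% over 46818 exonic and 61.5% over 71331 intergenic sites away from promoters, and 5.51% over 224681 sites within 2 kb of a gene's 5' end. In 2i, WT cells kept 45.1% of the serum mean at intronic, 43.6% at exonic and 54.5% at intergenic sites. At the edges of the rule, sites less than 250 bp beyond the 2 kb limit had a mean of 31.2% in WT cells in serum and those less than 250 bp within it one of 24.9%. Sites whose lowest coverage was 10 or 11 reads had a mean of 61.9%, and those at 8 or 9 reads one of 63.8%.

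Local CpG density separated methylated from unmethylated introns. The mean in WT cells in serum was 77.9% at the 4127 sites with 1 or 2 CpGs in a window of 100 bp to either side, 53.1% at 9 or 10 CpGs and 1.74% at the 4340 sites with over 20 CpGs, and KO ES cells in serum went from 82.1% to 2.74% over the same range. In 2i the corresponding means were 37.5% and 2.12% in WT and 33.8% and 1.17% in KO cells. Sites in island-like sequence, defined over 250 bp to either side by a GC share of at least 55% and an observed over expected CpG ratio of at least 0.65, averaged 5.04% in WT and 6.62% in KO ES cells in serum, against 66.8% and 72.9% elsewhere. Many of these island-like sites lay near an annotated transcript start, which need not belong to the host gene. Of 8262 island-like sites, 5320 were within 2 kb of the start of some annotated transcript, with a mean of 2.23% in WT cells in serum, and the other 2942 had a mean of 10.1%.

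Methylation also increased with distance from the 5' end of genes. In WT cells in serum the mean was 34.3% from 2 to 3 kb, 57.7% from 10 to 20 kb and 71.2% beyond 100 kb. At sites with at most 6 CpGs in this window the range was narrower, with 61.7%, 73.6% and 80.5%. Along the host gene the mean was 50.6% in the first intron and 68.3% from the sixth intron on, where CpG density was lower (9.39 against 7.02 CpGs in this window). Within 50 bp of an exon the mean was 43.3%, and more than 5 kb from an exon it was 66.0%, with densities of 12.1 and 7.43 CpGs. These are descriptions over sites, which share reads and regions and are not replicates.

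**Figure D2:**
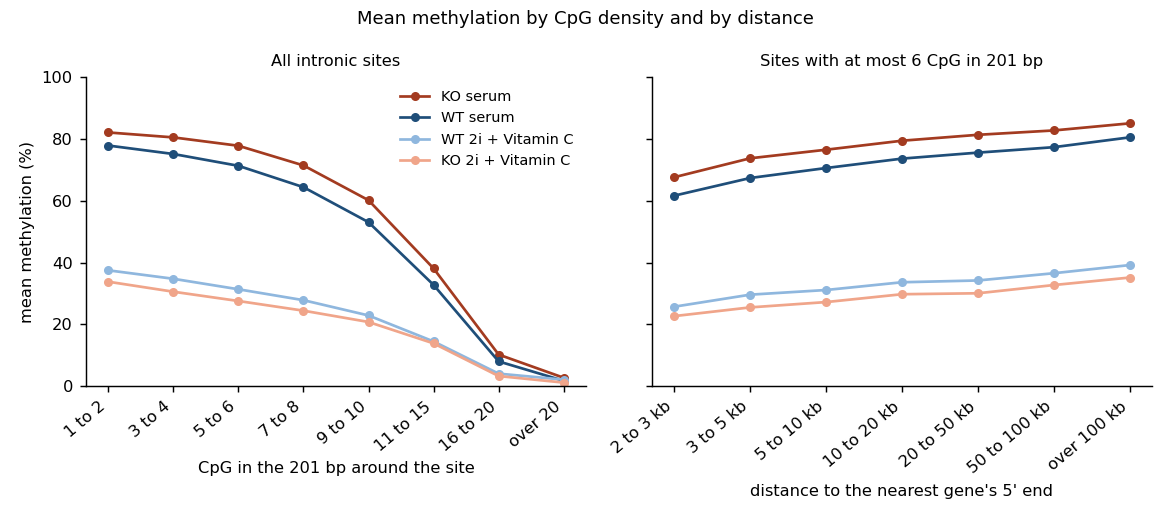
Mean methylation (y axis, percent) of intronic sites in the 4 libraries, on the left for all intronic sites against the number of CpGs within 100 bp of the site, and on the right for sites with at most 6 CpGs against the distance to the nearest gene 5' end. In WT cells in serum the mean goes from 77.9% at the lowest to 1.74% at the highest density, and in the right panel both 2i libraries lie below both serum libraries at every distance.

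Neighbouring intronic sites of the same host gene had similar levels. For pairs at most 20 bp apart the median absolute difference was 3.33 percentage points in WT cells in serum and 3.45 in WT cells in 2i, and for pairs 1 to 10 kb apart it was 16.6 and 18.6 points. Across the 19321 close pairs Pearson's r was 0.962 in WT and 0.965 in KO ES cells in serum and 0.907 and 0.881 in 2i, as a description, because such pairs are often read from the same fragments. The stretches defined above gather such sites. There were 2574 intronic stretches with 20107 sites in 1815 hosts, and their reads were pooled for the comparisons of named loci.

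The first comparison asked how intronic methylation changed when cells were moved from serum to 2i. Most intronic sites lost methylation in both genotypes. The mean difference was -31.4 percentage points in WT and -39.8 points in KO cells, and it was negative on all 19 autosomes in both. By Fisher's exact test per site with Benjamini-Hochberg adjustment over all 400195 sites (adjusted p under 0.05 and a difference of at least 20 points), 32339 intronic sites (60.1%) were lower in 2i in WT cells, where 26% of all sites were called lower. In KO cells 35237 intronic sites (65.4%) were lower, against 29.4% of all sites. Each of these tests compares the reads of 2 libraries, not the conditions.

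Very few intronic sites went the other way. In WT cells 33 sites (0.0613%) were called higher in 2i, against 0.149% of all sites. In KO cells 15 sites (0.0279%) were, against 0.029% of all sites. The 33 sites in WT cells had medians of 1.18% in serum and 31.2% in 2i, but in KO cells 34.9% in serum and 0.877% in 2i, and 25 of them followed the pairing of libraries described above. Without the sites 6 or 18 bp from the nearest CCGG, 16 remained. Of the 15 sites in KO cells none followed that pattern, and 3 were left when only sites with 1 placement of their sequence were counted.

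Over whole genes the drop was nearly general. Among 3250 genes with at least 5 intronic sites, the median of the gene means was 68.6% in WT and 77.0% in KO ES cells in serum and 25.2% and 22.0% in 2i. The gene mean was lower in 2i for 3116 genes in WT and 3222 genes in KO cells. At 1087 genes the mean was at least 80% in WT cells in serum, and at 17 genes it was in WT cells in 2i. Of the 2574 intronic stretches, 1322 (51.4%) were called lower in 2i in WT cells and 1490 (57.9%) in KO cells. Over stretches of all classes the shares were 22.7% and 26.7%. No intronic stretch was called higher in WT cells, where 0.0039% of stretches of all classes were. In KO cells 1 (0.0389%) was, the Cntn4 stretch described below, against 0.0195% of all.

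Stretches with high methylation in serum differed widely in what they kept. Of 808 stretches at 80% or above in serum in both genotypes, the quartiles in 2i were 33.4%, 45.5% and 58% in WT and 28.9%, 40.1% and 55.1% in KO cells. At 69 of them methylation was at least 70% in 2i in both genotypes, and at 6 it was at most 10% in both. At the other end, 815 stretches were at most 10% in all 4 libraries, with a median density of 17.1 CpGs in the window, and 536 of these lay within 2 kb of a transcript start.

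The stretch with the highest level in 2i, taken as the lower value of the genotypes, lay in an intron of Eml6 (chr11:29875685-29875832, 5 sites). Its methylation was 95.3% (95% Wilson interval 93.4 to 96.6) in WT and 95.1% (93.2 to 96.6) in KO ES cells in serum, and 92.0% (89.99 to 93.6) and 92.7% (87.6 to 95.8) in 2i. The 4 libraries hence differed by little at this stretch, and all intervals here cover counting error only. In Csgalnact1, which encodes an enzyme of chondroitin sulfate synthesis, a stretch of 6 sites had 97.7% and 98.2% in serum and 91.1% and 90.5% in 2i. A Gabrg3 stretch, in a gene for a GABA receptor subunit, had 97.2% and 98.1% in serum and 86.1% and 88.7% in 2i. Stretches of Svil, Zfp385c, Eci2, Pign, Enox1/Gm6994, Cmc1 and Dnahc1 completed the 10 highest, between 83.3% and 93.0% in 2i. These stretches were ranked by their 2i values, which are therefore a description. Of the 10, 6 lay in sequence with a median of more than 10 placements in the genome, among them Cmc1 with 500, whereas the Svil and Enox1/Gm6994 stretches had 1.

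Taken as the smaller drop of the genotypes, the largest drop was found in Cmklr1, which encodes the chemerin receptor (chr5:114073802-114074127, 6 sites). Its methylation was 86.9% (82.2 to 90.5) in WT and 90.5% (86.4 to 93.4) in KO ES cells in serum, and 3.01% (1.98 to 4.56) and 2.42% (0.826 to 6.87) in 2i. Stretches in 1700019D03Rik (93.1% and 87.0% in serum, 5.13% and 5.48% in 2i) and Smyd3, a lysine methyltransferase gene (83.4% and 89.6%, then 3.64% and 3.38%), came next. Col23a1, a collagen gene, had 83.1% and 88.2% in serum and 3.95% and 9.02% in 2i, and Pgbd5, a gene derived from a piggyBac transposase, had 94.4% and 95.7% and then 16.8% and 16.4%. In all 5 stretches both serum values lay far above both 2i values, a description since the size of the drop chose them. The 24-base pieces of the 1700019D03Rik stretch had a median of 1540.5 placements, those of the other stretches 1.

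The bases next to the CpG went with how much methylation was kept. Among sparse sites (at most 6 CpGs in this window) at 80% or above in serum in both genotypes, the 692 GCGC sites averaged 55.8% in WT and 47.6% in KO cells in 2i. The 552 ACGT sites had means of 40.9% and 34.9%, and the 7052 CCGG sites, which are MspI sites, had 46.4% and 42.0%. The serum means of the 3 groups were between 90.02% and 92.6% in WT cells. These tetranucleotides were read on both strands, so that each stands for itself and its reverse complement.

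The second comparison, of Chr4-cl KO with WT cells, asked whether loss of the KRAB-ZFP cluster goes with a change of intronic methylation. In serum, KO cells had more methylation than WT cells at most intronic sites, and in 2i they had less. The mean difference (KO minus WT) was 5.43 percentage points in serum (5.36 to 5.49, counting error only) and -2.96 points in 2i (-3.03 to -2.89). KO cells were higher at 68.0% of sites in serum and lower at 61.2% of sites in 2i, and all 19 autosomes had the same sign within a medium. At all sites outside the intronic class the mean differences were 2.76 and -1.55 points. At exonic sites away from promoters they were 5.51 and -2.31 points, and at intergenic ones 4.11 and -2.45 points. At intronic sites both differences kept their sign at every distance from CCGG. They were 5.64 and -3 points at the 23120 sites at least 20 bp away. At the 733 sites 6 bp away they were 8.78 and -7.63 points. Without the sites 6 or 18 bp away they were 5.37 and -2.87 points.

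The size of the serum difference depended on how sites were weighted. With sites weighted by their reads in all 4 libraries it was 4.87 points, but with the reads of each library pooled over sites it was -0.403 points, since the pooled level was 51.3% in WT and 50.9% in KO cells. Sites with many reads in 1 library only count more in the pooled level. In 2i the pooled levels were 22.3% in WT and 21% in KO cells, a difference of -1.32 points.

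By Fisher's exact test per site, 1752 intronic sites (3.25%) were called higher in KO than in WT cells in serum, where 1.79% of all sites were, and 77 (0.143%) were called lower, where 0.115% of all sites were. The higher sites were spread over 922 hosts, the lower ones over 34. In 2i, 273 intronic sites (0.507%) were called lower in KO cells and 58 (0.108%) higher, against 0.405% and 0.0917% of all sites. Without the sites 6 or 18 bp from the nearest CCGG, 3.15% were called higher in serum and 0.461% lower in 2i. The share called higher in serum was thus above that of all sites, while the other shares were close to it. It was not particular to introns. In serum 4.10% of exonic and 2.44% of intergenic sites away from promoters were called higher. Within 2 kb of a gene's 5' end, where most sites had little methylation, 0.757% were.

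The comparisons of the 2 media have no library in common, and their calls shared more of the losses than of the gains. Of the sites lower in KO cells, 22 were called in both media, which is 28.6% of the serum list and 8.06% of the 2i list. Over all intronic sites, 0.507% were called lower in 2i and 0.143% in serum. The 22 sites lay in Brd3, Grb10, Prodh2, Smyd4 and Trappc9, and neighbouring sites are not replicates. Called or not, 65 of the 77 sites of the serum list were also lower in KO cells in 2i. The median difference in 2i over that list was -19.6 points. Of the 273 sites of the 2i list, 100 were lower in KO cells in serum. Of the sites higher in KO cells, 3 were called in both media (0.171% and 5.17% of the lists), in Lsamp, Pid1 and Urb1. Over all intronic sites, 0.108% were called higher in 2i and 3.25% in serum. In addition, 33 sites were called higher in KO ES cells in serum and lower in 2i. Their medians were 3.47% in WT and 50.7% in KO ES cells in serum and 34.5% and 1.38% in 2i, and 19 of them followed the pairing of libraries described above. Another 6 sites, in 4 hosts, were called lower in serum and higher in 2i.

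Among intronic stretches, 166 (6.45%) were called higher in KO ES cells in serum and 6 (0.233%) lower. Over stretches of all classes the shares were 2.9% and 0.172%. In 2i, 22 (0.855%) were called lower and 11 (0.427%) higher, against 0.629% and 0.293% of all. The 166 gains in serum had a median difference of 25.5 percentage points, with medians of 41.5% in WT and 68.6% in KO ES cells in serum, and of 8.06% and 6.93% in 2i. The 22 losses in 2i had medians of 90.5% and 93.5% in serum and of 54.3% and 30.4% in 2i. None of the 166 gains in serum was called in 2i, and 4 of the 6 losses in serum were called lower there too.

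**Figure D3:**
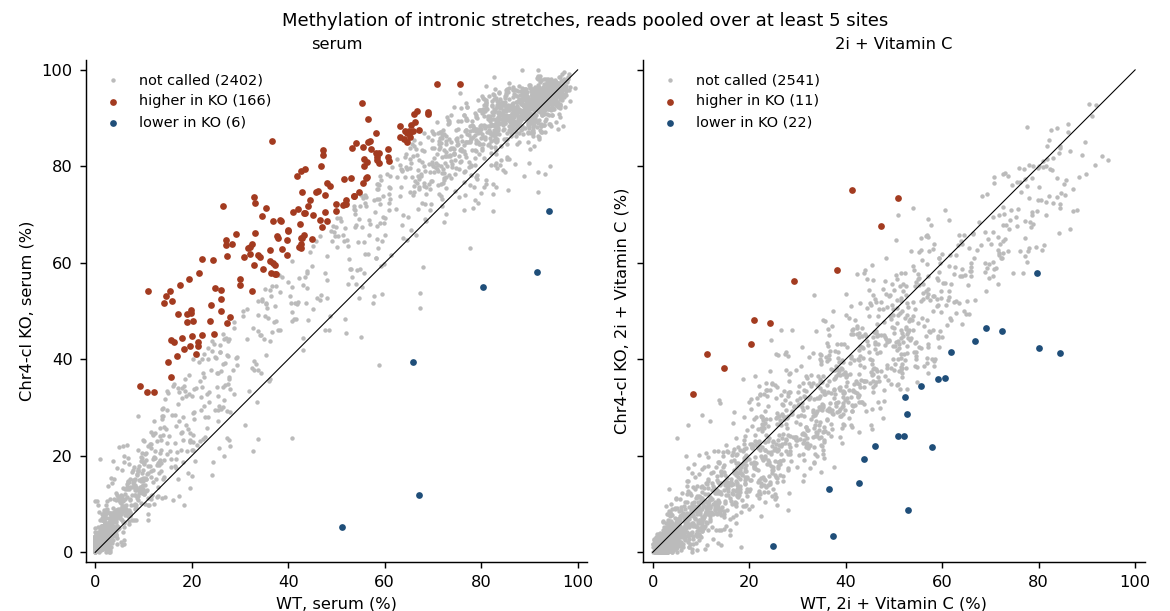
Methylation of the 2574 intronic stretches in KO cells (y axis, percent) against WT cells (x axis, percent), in serum and in 2i, with called stretches in color and the diagonal as a line. In serum 166 stretches are called above the line at intermediate WT levels and 6 below it, and in 2i 22 are called below and 11 above. Because a call needs a minimum difference, stretches near the top of the WT scale cannot be called above the line. Those near the bottom cannot be called below it.

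The largest loss in KO ES cells in serum was in Grb10, an imprinted gene for an adaptor protein that restrains growth factor signaling. All 17 of its intronic sites were called lower in KO ES cells in serum (adjusted p from 1.37e-66 to 0.000401, Fisher's exact test), and 8 of them in 2i too. The upstream stretch (chr11:11926770-11926859, 8 sites, in a 1.17 kb intron) had 67.1% (63.1 to 70.8) in WT and 11.8% (10.03 to 13.8) in KO ES cells in serum, and 37.3% (34.5 to 40.2) and 3.33% (1.62 to 6.72) in 2i. KO cells were lower in both media, and the intervals of the genotypes did not overlap in either (adjusted p = 1.83e-115 and 6.40e-26, Fisher's exact test). The second stretch (chr11:11925631-11925798, 9 sites) had 51.1% (49.3 to 52.9) and 5.30% (4.63 to 6.06) in serum, and 25% (23.3 to 26.9) and 1.29% (0.441 to 3.73) in 2i (adjusted p = 7.04e-21 in 2i, Fisher's exact test). Both stretches lie more than 11 kb from the 5' end of the gene but next to starts of shorter Grb10 transcripts, the upstream one at 35 bp.

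Other sites lower in KO ES cells in serum were also found in imprinted genes. In Trappc9, whose introns hold the imprinted noncoding RNA Peg13, a stretch of 8 sites (chr15:72640310-72640517) had 94.0% (93.3 to 94.7) in WT and 70.7% (69.3 to 72.1) in KO ES cells in serum. In 2i it had 84.4% (82.9 to 85.7) and 41.4% (39.2 to 43.6), the second largest loss of a stretch in that medium (adjusted p = 8.93e-194 and 3.39e-206, Fisher's exact test). All 8 sites of this stretch were called lower in both media. In Inpp5f, which gives rise to an imprinted shorter transcript, all 4 intronic sites were called lower in serum, with 42.2% to 64.3% in WT and 0% to 4.26% in KO cells. In 2i these 4 sites had 23.6% to 29.4% in WT and 6.25% to 12.5% in KO cells, with no call. In Kcnq1, the host of the imprinted antisense RNA Kcnq1ot1, 4 sites of 45, within 109 bp, were called lower in serum, with 59.3% to 65.1% in WT and 20.5% to 38.6% in KO cells, and with 33.1% to 40.4% and 23.9% to 30.6% in 2i. Inpp5f and Kcnq1 were singled out after their values were seen, for their number of called sites.

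Brd3, which encodes a BET bromodomain reader of acetylated histones, held the largest loss in 2i and the third largest in serum. The stretch (chr2:27351140-27351539, 8 sites, in a 31.8 kb intron of the longest transcript) had 91.6% (89.7 to 93.1) in WT and 58% (55.1 to 60.9) in KO ES cells in serum. In 2i it had 52.9% (50.2 to 55.7) and 8.77% (7.21 to 10.6), so that KO cells were lower in both media (adjusted p = 2.94e-72 and 1.17e-120, Fisher's exact test). A second Brd3 stretch (chr2:27356581-27356682, 5 sites) had 96.3% and 90.2% in serum, which was not called, and 57.9% and 21.7% in 2i (adjusted p = 1.31e-06, Fisher's exact test). An Atp8a2 stretch, in a gene for a phospholipid flippase, had 90.2% and 92.5% in serum and 80% and 42.4% in 2i, but with 55 and 59 reads and a median of 210 placements.

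Of the 22 stretches lower in 2i, 4 were also called lower in serum, 2 in Grb10 and 1 each in Brd3 and Trappc9. Among single genes, 5 of the 6 sites of BC035947 and 3 of the 17 sites of Osbpl10, an oxysterol-binding protein gene, were called lower in 2i, and both genes were picked out after their values were seen. The BC035947 sites had 61.5% to 81.0% in WT and 11.1% to 24.2% in KO cells in 2i, but 86.4% to 100% and 85.7% to 94.4% in serum. The Osbpl10 sites had 45.9% to 72.2% and 3.23% to 22.5% in 2i, and 80% to 100% and 81.8% to 94.5% in serum. At these called sites the ranges of the genotypes overlapped in serum. Their separation in 2i follows largely from the choice of sites called there, and the uncalled sites of both genes are left out. Gm20388, a gene model of 4.43 Mb on chromosome 8 that runs through many other genes, was the only annotated host of 1021 sites and held 12 of the 273 sites.

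Called gains in KO ES cells in serum lay at stretches of intermediate methylation in WT cells. A call needed a minimum difference, so stretches near the top of the scale in WT cells could not be called. Their absence among the gains follows from that threshold. Gains from low levels could be called, and among single sites 1.15% of those at 0 to 10% in WT cells in serum were. At 30 to 50% it was 17.2%. In 1300010F03Rik (chr14:79520525-79520570, 5 sites) methylation was 36.7% (25.6 to 49.3) in WT and 85.3% (78.8 to 90.1) in KO ES cells in serum, and 8.43% (5.09 to 13.7) and 8.50% (5.37 to 13.2) in 2i. In Dennd3, a regulator of Rab GTPases (chr15:73363378-73363644, 7 sites), it was 26.5% (23.3 to 30.1) and 71.7% (68.3 to 74.97) in serum, and 5.47% (4.06 to 7.34) and 4.28% (3.05 to 5.98) in 2i. The genotypes were thus far apart in serum and overlapped in 2i at both stretches (adjusted p in serum 1.34e-10 and 5.80e-61, Fisher's exact test). Arhgef10l had 32.8% and 73.7% in serum, and 5730528L13Rik had 33% and 72.5%, and both were under 8% in 2i in both genotypes.

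Apart from the long gene model Gm20388 with 22 sites, the genes with most sites called higher in KO ES cells in serum were Nphp4, Elovl6, Epha2, Acvr2b and Jarid2, singled out by these numbers after their values were seen. In Acvr2b, an activin receptor gene, 9 of 26 sites were called, with medians of 28.6% in WT and 75% in KO ES cells in serum and of 4.95% and 0% in 2i. In Epha2, an ephrin receptor gene, 10 of 19 sites were called, with medians of 21.2% and 51.2% in serum and 12.1% and 8.55% in 2i. In Elovl6, a fatty acid elongase gene, 10 of 20 sites were called (medians 40.9% and 77.3% in serum), and in the ciliary gene Nphp4 12 of 86 (28.4% and 69.9%). In Jarid2, a cofactor of PRC2, 9 of 37 sites were called, with medians of 22.6% and 48.6% in serum and 2.86% and 4% in 2i. All these medians are over the called sites only, so the gaps in serum follow from the choice of sites. Over all 37 sites of Jarid2 the means in serum were 9.67% in WT and 19.4% in KO cells. Of all intronic sites 3.25% were called higher in serum. The called sites of Acvr2b lay within 277 bp, those of the other genes over 12464 to 53198 bp.

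Gains in KO cells in 2i were found mainly in repeated sequence. The Cntn4 stretch (chr6:105648454-105648623, 7 sites), in a gene for a neuronal cell adhesion protein, had 65.9% (59.4 to 71.9) in WT and 39.5% (31.2 to 48.5) in KO ES cells in serum. In 2i it had 41.4% (35.3 to 47.7) and 75.2% (72.4 to 77.8), so that KO cells were lower in serum and higher in 2i (adjusted p = 2.38e-05 and 4.58e-20, Fisher's exact test). Coverage at this stretch was uneven, with 217 reads in WT and 119 in KO ES cells in serum, and 237 and 984 reads in 2i. The next gains were in Nkain3 (11.4% in WT and 41.1% in KO cells in 2i), the alpha-catenin gene Ctnna2 (21% and 48.1%), Unc80 (29.3% and 56.2%) and Atp13a4 (8.29% and 32.9%). At these 4 stretches both genotypes had 69.2% or more in serum. The median placements of their 24-base pieces were 1742, 438, 154 and 111. An Itgbl1 stretch (chr14:124122427-124122570, 6 sites, 2534 placements) had 80.4% and 55.1% in serum and 13.7% and 31.6% in 2i. Counting only stretches with 1 placement left 1 of the 11 gains in 2i and 3 of the 6 losses in serum.

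**Figure D4:**
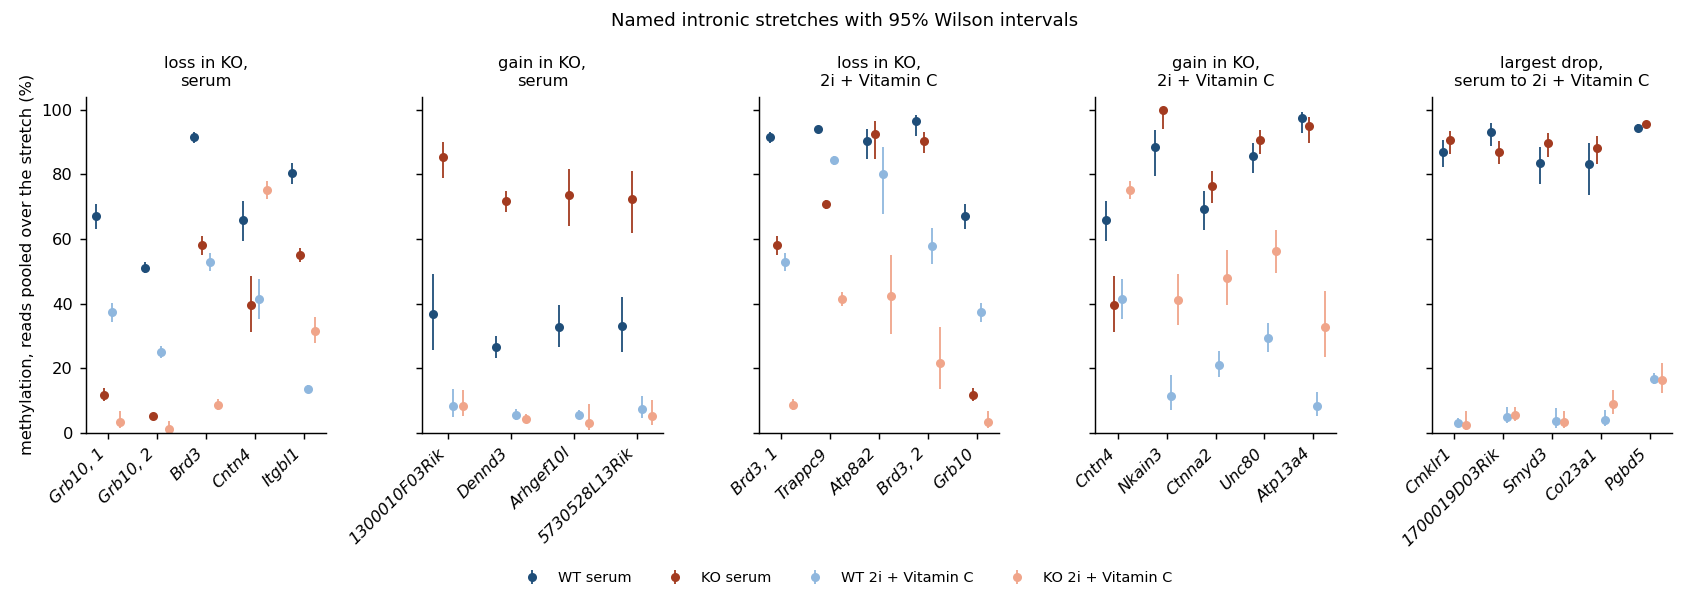
Methylation of the named stretches (y axis, percent, reads pooled over the stretch) in the 4 libraries, with 95% Wilson intervals as bars, in panels for the largest losses and gains in KO cells in each medium and the largest drops from serum to 2i. Both Grb10 stretches are lower in KO cells in each medium, Dennd3 has 26.5% (WT) and 71.7% (KO) in serum but overlapping intervals in 2i, and the 5 largest drops have both serum points near the top and both 2i points near the bottom.

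Sites near capture probes for ETn (RLTRETN_Mm) and RLTR4 (RLTR4_Mm) elements, which belong to LTR retrotransposon groups examined in the study, were looked at separately. Within 1000 bp of an exact match of an ETn probe there were 23 intronic sites in 11 hosts, with means of 81.9% in WT and 81.7% in KO ES cells in serum and of 41.2% and 35.9% in 2i. KO cells were lower at 13 of these 23 sites in 2i. Within 1000 bp of an RLTR4 probe there were 11 sites in 3 hosts, with means of 83.1% and 86.4% in serum and 42.8% and 40.8% in 2i. None of these 34 sites was called in either medium, and with 3.25% of intronic sites called higher in serum and 0.507% lower in 2i, few calls could be seen in so few sites. Hk1, Fgf14 and Hsf2bp had the most sites near ETn probes, and they were picked after their values were seen. At the 4 sites of Hk1, a hexokinase gene, the means were 89.9% and 84.6% in serum and 75.8% and 56.8% in 2i, and at the 4 sites of Fgf14 they were 97.4% and 90.9% in serum and 10% and 11% in 2i. At the 4 sites of Hsf2bp they were 86.4% and 94.8% in serum and 29.9% and 34.5% in 2i, so that KO cells were above WT cells there in both media.

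Gene lists for pluripotency, signaling, chromatin and development were described by the mean over the intronic sites of each gene with at least 5 sites. The median gene mean in WT cells in serum was 17.8% for 5 primed and early differentiation genes, 18.1% for 31 homeobox and paired-box regulators and 21.3% for 8 Polycomb genes, all below the 68.6% over all 3250 genes. It was 53.7% for 4 naive pluripotency genes, 31.0% for 3 DNA methylation enzymes, 47.0% for 15 Wnt, 64.2% for 8 FGF and ERK, 63.3% for 12 imprinted and 71.5% for 4 germline genes. None of the 18 genes of the KAP1 and H3K9 methylation list had 5 sites. In 2i the medians in WT cells ranged from 4.05% for the primed genes to 32.3% for the germline genes. The median KO minus WT difference of gene means was between 0.308 points (primed genes) and 9.13 points (FGF and ERK genes) in serum, where it was 4.61 points over all genes.

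Within most lists single genes spanned nearly the whole scale. Among naive pluripotency genes, Stat3, the transcription factor downstream of LIF, had a mean of 88.5% and Lifr, the LIF receptor gene, one of 83.8% in WT cells in serum, while Esrrb, an orphan nuclear receptor gene, had 23.7% and Tet1, a TET dioxygenase gene, 4.95%. Esrrb was also the gene of this list with most sites called higher in KO ES cells in serum, with 5 of 38 and means of 23.7% in WT and 33.8% in KO cells. Among Wnt genes, Nkd1 had 93.4% and Lrp5 88.2%, against 1.5% for Ctnnb1 (beta-catenin) and 1.84% for Csnk1e. In Polycomb genes, Suz12 (87.2%) and Cbx2 (82.8%) were at the top and Jarid2 (9.67%) and Pcgf5 (1.39%) at the bottom. In the FGF and ERK list Rps6ka2 (86.4%) and Ksr2 (72.0%) had the highest and Gab1 (49.3%) and Ksr1 (31.4%) the lowest means, and Ksr1, a scaffold of the ERK cascade, had 55.9% in KO ES cells in serum with 3 of 9 sites called higher.

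Many regulators of early development had low intronic methylation. Sox17 (1.77%) and Zic2 (7.18%), transcription factors of endoderm and neural development, had the lowest means of the primed list, and Lef1 (84.9%), a Wnt effector, and Pax6 (21.1%) the highest. Lhx5 (3.47%) and Hoxb3 (3.74%) were lowest and Prdm16 (78.2%) highest among the homeobox and paired-box regulators. In this list 28 of 31 genes had higher means in KO than in WT cells in serum, as did 89.0% of all 3250 genes. Of its 725 sites 17 (2.34%) were called higher in serum and none lower, against 3.33% and 0.152% of the sites in all these genes. In the DNA methylation list Uhrf1, which recruits DNMT1 to replicating DNA, fell from 72.0% to 13.9% in WT and from 79.7% to 8.97% in KO cells, with all 5 of its sites called lower in both. Dnmt3a, a de novo methyltransferase gene, had 31.0% and 36.1% in serum and 16% and 13.9% in 2i.

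Among the lists, sites called lower in KO ES cells in serum were nearly all in imprinted genes, with 1 more in a Wnt gene. Of the intronic sites in 12 imprinted genes, 29 (14.4%) were called lower in KO ES cells in serum and 18 (8.96%) in 2i, against 0.152% and 0.496% of the sites in all 3250 genes. The 29 sites lay in Grb10 (17), Trappc9 (8) and Kcnq1 (4), within 1229, 208 and 109 bp, and such neighbouring sites are not replicates. The list was chosen with earlier results of these data known, so these shares are a description only. The other 9 imprinted genes had no site called lower in serum. Calcr (96.6%) and Herc3 (92.3%) had the highest and Igf2 (11.3%) and Blcap (2.28%) the lowest means of this list in WT cells in serum. Calcr kept 84.2% in WT and 66.2% in KO cells in 2i, with 2 of its 6 sites called lower in KO cells. At Mest, a paternally expressed gene named after its values were seen, the 7 sites had means of 54.6% in WT and 57.3% in KO ES cells in serum and of 35.3% and 34.3% in 2i. Among germline genes Sycp1, a component of the synaptonemal complex, had 97.6% and 96.6% in serum and 91.8% and 80.3% in 2i, and Tdrd9 had 82.8% and 88.5% and then 43.5% and 31.1%. Spo11, the nuclease that starts meiotic recombination, had 48.1% and 60.7% in serum and 15.4% and 7.79% in 2i, and Tex14 had 60.2% and 60.4% and then 21% and 15.6%.

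**Figure D5:**
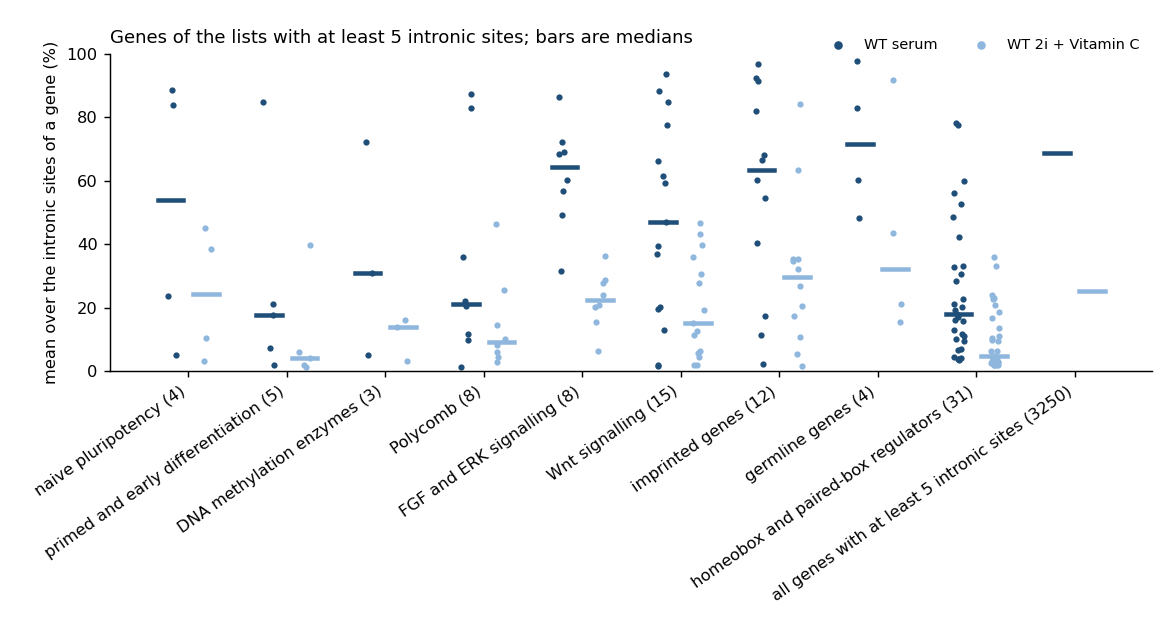
Mean methylation over the intronic sites of each gene with at least 5 sites (y axis, percent), by gene list, for WT cells in serum and in 2i, with bars at the medians. The medians in serum range from 17.8% for primed genes to 71.5% for germline genes, and every list has a lower median in 2i.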

How the data were processed

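RRBS-seq was analysed in 4 libraries, 1 for each genotype and medium. The authors digested genomic DNA with MspI, sequenced 50 bp paired ends, trimmed reads with Trim Galore and aligned them to mm9 with Bismark (submitters' processing notes and the study's methods, versions not given in the sources used here). The deposited files give, for each CpG, counts of all reads and of methylated reads on both strands together, and the methylated fraction made from them by the authors. The fraction was recomputed from the counts. The files of WT cells in serum and KO cells in 2i held a second table joined to the first, and rows at repeated positions (332 and 830) were left out.

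Sites were placed by GENCODE vM1. Sites and stretches were compared by the exact test of Fisher (two-sided), adjusted by the method of Benjamini and Hochberg over all 400195 sites or 25612 stretches, and calls needed adjusted p under 0.05 and a difference of at least 20 percentage points. The script was tested on simulated data. The members and gene lists were chosen with earlier results of these data known. Named were, for each medium, the 5 called stretches with the largest loss and the 5 with the largest gain in KO cells, the 10 highest in 2i, the 5 largest drops, and for each gene list the 2 highest and 2 lowest genes with at least 5 sites. Of these, 2 genes are not reported here. Placements are exact matches of 24-base sequences in mm9. Median coverage over all sites with 10 reads was 25 to 50 reads, and with no unique molecular identifiers intervals (95% Wilson) cover counting error only. Sequences are from mm9. Tests used scipy 1.17.1 in Python 3.11.15, with tables in pandas 2.3.3, and figures were drawn with matplotlib 3.10.9.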

Additional observations from a re-analysis of the deposited data

Results flagged for a closer look

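The KO minus WT difference had opposite signs in the media. The mean over intronic sites was 5.43 percentage points in serum and -2.96 points in 2i, with the same sign within a medium on every autosome. Whether the difference itself depends on the medium was not tested, because each condition is 1 library, and a difference between the pair of libraries WT serum and KO 2i and the other pair cannot be told apart from it. The Cntn4 stretch of 7 sites had a difference of -26.4 points in serum and 33.9 points in 2i, and the Itgbl1 stretch of 6 sites one of -25.3 and 17.9 points. These differences between media were not tested either, and both stretches lie in sequence that occurs many times in mm9.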

How the results depend on the processing

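The mean differences are given in the order KO minus WT in serum, KO minus WT in 2i, 2i minus serum in WT and 2i minus serum in KO. Of 164 values under other settings, 97 stayed within the error or within 1.5 times, 66 moved and 1 turned its sign. With pooled reads the means were -0.403 (the sign that turned), -1.32, -29 and -30 points. Farther than 2 kb from every transcript start they were 5.91, -3.23, -36.1 and -45.3 points, and 15 sites were higher in 2i in WT cells. At 5 reads the medium differences were -32.6 and -41 points, with 13 stretches lower and 264 higher in KO cells in serum, 62 lower and 25 higher in 2i, and 23 sites higher in 2i in KO cells. At 20 reads they were -30.2 and -38.4 points, with 90 stretches higher in serum, 10 lower and 3 higher in 2i, 20909 and 23040 sites lower in 2i in WT and KO cells, and 2 sites higher in KO cells. With 10 reads only in the libraries compared they were -34.2 and -39.6 points, with 132 sites lower and 2891 higher in KO cells in serum, and 66101 lower and 68 higher in 2i in WT cells. Thinning reads to equal coverage left 39 sites lower and 769 higher in serum, 127 lower and 12 higher in 2i, and 6 higher in 2i than serum in KO cells. A difference of 10 points gave 20 stretches lower and 492 higher in serum, 424 sites and 188 stretches lower and 44 stretches higher in 2i, and 100 sites higher in 2i in WT cells. A difference of 30 points gave 46 sites and 3 stretches lower and 860 sites and 43 stretches higher in serum, 159 sites and 5 stretches lower and 32 sites and 1 stretch higher in 2i, and 15 sites higher in 2i in WT cells. Gaps of at most 100 bp and leaving out Gm20388 moved no value.

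The following settings were added after seeing the data. Weighting by reads gave 4.87, -2.87, -26.4 and -34.2 points. Sites at least 20 bp from every CCGG gave 5.64 points in serum and -29.1 and -37.8 points between media. Without sites 6 or 18 bp from CCGG the differences were -2.87 points in 2i and -31.6 points between media in WT cells, and 16 sites were higher in 2i in WT cells. Sequence placed once (48286 sites, 2159 stretches) gave -3.11 points in 2i and -31.3 and -39.9 points between media, 3 stretches lower in serum, 20 sites and 1 stretch higher in 2i, and 3 sites higher in 2i than serum in KO cells. Apart from changes made by testing fewer sites or a different threshold, the cause was not tested. Restricting to sites that are not soft-masked was not run, because the reference carries no soft mask. No paired analysis was possible because each condition has 1 library. With a median of 34 reads a site in KO cells in 2i, smaller differences at single sites were not detectable at this depth.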
